A study of Mus musculus with 8 samples.

Results

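The ATF4 amino acid stress response was followed through 10 genes in mouse embryonic fibroblasts (MEFs) and in MEFs treated with 1 of 3 small molecules. The members were the rows of the deposited count table whose symbol was Atf4, Atf3, Ddit3, Asns, Trib3, Chac1, Psat1, Phgdh, Shmt2 or Sesn2. The rule itself uses no measured value, but the genes were named with earlier results of these data known. They were 10 of 50578 genes in the table, and all 10 were among the 15154 genes that passed the filter on low counts. RNA had been sequenced from 8 libraries, 2 for each of 4 groups. The study used a computational screen to pick compounds that might move fibroblasts towards hepatocytes, and the libraries record what the chosen compounds did to the fibroblast transcriptome.

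All 4 groups came from wild-type MEFs, primary fibroblasts grown out of mid-gestation C57BL/6J mouse embryos without head, limbs and internal organs. The MEF group was labelled as the control, and whether it received a vehicle was not given in the sources used here. The carbidopa group received carbidopa, an inhibitor of aromatic L-amino acid decarboxylase, at 10 µM. The CHIR-99021 group received CHIR-99021, an inhibitor of glycogen synthase kinase 3, at 10 µM. The LY-364747 group, so spelled in the labels and named LY-364947 in the methods of the study, received an inhibitor of the TGF-β type I receptor kinase at 10 µM. The length of treatment behind the RNA was not given in the sources used here. No source says that the 2 libraries of a group came from separate cultures, so the p-values measure the spread between these libraries, which may be technical.

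ATF4 is the transcription factor of the integrated stress response. When cells lack amino acids, accumulate unfolded proteins or are otherwise stressed, kinases phosphorylate the translation factor eIF2α, bulk protein synthesis falls and the Atf4 mRNA, held back by upstream reading frames, is translated more. ATF4 then pairs with C/EBP family proteins on a composite DNA element and switches on genes for amino acid synthesis and uptake, tRNA charging and, under lasting stress, cell death. Because that control acts on translation, the Atf4 mRNA measured here does not report the amount of ATF4 protein.

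The composite element, known as the C/EBP-ATF response element, was looked for as the 8 letters TGATGNAA on both strands in windows of 300 bases, 250 before and 50 after each RefSeq start, on GRCm38.p6. It was present in 1304 of 32851 windows (3.97%), and in the windows of Atf3, Asns, Trib3 and Chac1. These 4 stretches are shown because they are the members whose start regions carry the letters, each on the strand of its gene with the match in capitals. The Atf3 stretch is at chr1:191183410-191183469, minus strand, the Asns stretch at chr6:7693210-7693258, minus strand, the Trib3 stretch at chr2:152344028-152344057, minus strand, and the Chac1 stretch at chr2:119351023-119351082, plus strand.
Atf3: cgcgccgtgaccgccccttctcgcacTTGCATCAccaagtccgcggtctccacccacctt
Asns: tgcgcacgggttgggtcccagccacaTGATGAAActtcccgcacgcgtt
Trib3: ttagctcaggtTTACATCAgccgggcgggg
Chac1: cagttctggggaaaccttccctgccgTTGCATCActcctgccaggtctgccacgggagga
The match lay from base -110 to -103 of the Atf3 start, from -23 to -16 of the Asns start, from 15 to 22 of the Trib3 start and from -193 to -186 of the Chac1 start. In Asns it was read on the gene's own strand and in the other 3 on the opposite strand. The windows of Atf4, Ddit3, Psat1, Phgdh, Shmt2 and Sesn2 held no match, which says only that these letters are not in those windows.

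Total counts ran from 15039566 to 20504338 per library, and mitochondrial transcripts took 1.31 to 1.97% of them. The 2 carbidopa libraries lay farthest from each other, with a chi-square per degree of freedom of 34.6 over genes against 4.31 to 9.21 in the other groups, so values with and without each are given where they matter. The fibroblast markers of the list used here summed to 41203 to 41420 CPM (counts scaled to a common library size) in MEFs and 9924 to 13690 CPM in treated cells. Fn1 was the largest part in MEFs, at 18682 to 19267 CPM, and lay at 1956 to 4990 CPM in treated cells. With each compound 10 of the 12 genes were lower at an edgeR adjusted p under 0.05. Among all genes 19.7%, 17.2% and 20.1% were lower with carbidopa, LY-364747 and CHIR-99021. Pdgfra was higher with each compound. Dcn did not pass with carbidopa or LY-364747, nor Pdgfrb with CHIR-99021. Macrophage markers summed to 1310 to 1350 CPM in MEFs, 389 to 409 CPM with carbidopa, 290 to 300 CPM with LY-364747 and 98.1 to 104 CPM with CHIR-99021, and in these bulk libraries fewer cells of a type and less RNA per cell cannot be told apart. Cell cycle markers summed to 255 to 265 CPM in MEFs and 108 to 119 CPM with CHIR-99021, against 209 to 241 CPM with the other compounds, and epithelial markers to 3.10 to 4.16 CPM in MEFs and 9.82 to 21.4 CPM in treated cells. Most of the epithelial sum was Krt19, at 2.32 to 3.20 CPM in MEFs and 6.09 to 19.2 CPM in treated cells, while Epcam, Cdh1 and Krt8 were under the filter. The labels call the treated cells hepatic-like. Of 5 hepatocyte genes looked up, Alb was at 2 and 0 reads in MEFs and at 5 to 10 reads in each treated library, and Hnf4a had 1 and 2 reads in MEFs and 6 to 10 in each treated library. Ttr, Apoa1 and Afp had at most 3 reads in any library, MEFs included. These shifts accompany every result below that sets treated cells against MEFs, and their part in those results was not tested.

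Per transcript length, Atf4 was the most abundant member in every group, at 118 ± 1.23 RPKM (reads scaled to library size and transcript length, SD, n = 2) in MEFs. Phgdh (56.4 ± 3.07 RPKM) and Asns (54.2 ± 0.0565 RPKM) came next in MEFs and were not apart from each other, followed by Psat1 (43.7 ± 1.33 RPKM) and Ddit3 (29.9 ± 1.86 RPKM). Sesn2 and Shmt2, at 28.0 and 27.7 RPKM, did not separate, and Trib3, Chac1 and Atf3 were the scarcest at 8.60, 7.35 and 3.60 RPKM. In treated cells Ddit3 moved from rank 5 to rank 2, at 76.3 ± 25.1 RPKM with carbidopa, 51.2 ± 3.83 RPKM with LY-364747 and 55.9 ± 9.92 RPKM with CHIR-99021. Sesn2 moved from rank 6 in MEFs to rank 3 with CHIR-99021, where it did not separate from Asns. The lowest 3 ranks were held by Trib3, Chac1 and Atf3 in all 4 groups.

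Among the 3 transcription factors the mRNAs parted ways: Ddit3 rose and Atf3 fell with every compound. Atf4 itself did not pass the main test with any, but passed with carbidopa and CHIR-99021 in some alternatives. All log2 fold changes below come from one edgeR quasi-likelihood fit over the 8 libraries, with p-values adjusted by the Benjamini-Hochberg method over the 15154 genes, and a gene is called at an adjusted p under 0.05. Levels per library are CPM after normalization for composition.

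Ddit3 (chr10:127290774-127296288, plus strand, GRCm38) encodes CHOP, the factor that drives cell death under lasting stress. Its level was 48.9 and 53.4 CPM in MEFs, 161 and 100.4 CPM with carbidopa, 83.1 and 92.4 CPM with LY-364747 and 108 and 83.8 CPM with CHIR-99021. All 6 treated libraries lay above both MEF libraries, and carbidopa replicate 1 stood highest. Ddit3 changed by 1.35 on the log2 scale (SE 0.20, 2.55-fold) with carbidopa, with an edgeR adjusted p of 5.35e-04. It was 0.97 without carbidopa replicate 1 and 1.65 without carbidopa replicate 2, and remained called in both. With CHIR-99021 the change was 0.90 (SE 0.20, 1.87-fold, edgeR adjusted p = 0.00566). This call was lost without MEF replicate 1 (edgeR adjusted p = 0.0525) and without CHIR-99021 replicate 1 (edgeR adjusted p = 0.0631). LY-364747 gave 0.78 (SE 0.20, 1.71-fold, edgeR adjusted p = 0.0147), and that call was lost without MEF replicate 1 (edgeR adjusted p = 0.108), MEF replicate 2 (0.0640) or LY-364747 replicate 2 (0.0938). Exons of Ddit3 overlap those of Mars, a tRNA synthetase gene on the opposite strand, and whether reads were counted by strand was not given in the sources used here. Mars itself lay between 55.1 and 64.9 CPM in all 8 libraries and was not called in any comparison with MEFs.

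Atf3 (chr1:191170296-191218039, minus strand), an early-response factor that ATF4 induces and that can repress its targets, went the other way. It was the scarcest member, drawing 109 and 115 reads in MEFs, 84 and 62 reads under carbidopa, 49 and 51 reads under LY-364747 and 30 and 32 reads under CHIR-99021. After normalization this came to 8.11 and 7.42 CPM in MEFs, 3.95 and 2.89 CPM with carbidopa, 2.75 and 2.72 CPM with LY-364747 and 1.73 and 1.86 CPM with CHIR-99021. The MEF libraries were above all treated libraries, and the CHIR-99021 libraries were below all others. On the log2 scale Atf3 changed by -1.18 (SE 0.21) with carbidopa, -1.50 (SE 0.22) with LY-364747 and -2.11 (SE 0.24) with CHIR-99021. The edgeR adjusted p-values were 0.00178, 5.03e-04 and 6.42e-05, and the 3 calls held in every alternative that was run.

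Atf4 (chr15:80255184-80257541, plus strand) was not called with any compound in the main fit, although 2 of its 3 changes were near the threshold. It was at 276 and 280.4 CPM in MEFs, 396 and 306 CPM with carbidopa, 276 and 285 CPM with LY-364747 and 332 and 338 CPM with CHIR-99021. The carbidopa and CHIR-99021 libraries lay above both MEF libraries, while the LY-364747 libraries overlapped them. Atf4 changed by 0.33 on the log2 scale (SE 0.12, 95% interval 0.06 to 0.60) with carbidopa and 0.27 (SE 0.12) with CHIR-99021, with edgeR adjusted p-values of 0.0521 and 0.105. With LY-364747 it was 0.01 (95% interval -0.26 to 0.28). Only Atf4, Ddit3 and Sesn2 had positive changes with carbidopa and with CHIR-99021. Without the filter on low counts 3 members were called higher with carbidopa, so Atf4 passed there. The same count of 3 was higher with CHIR-99021 when only the groups compared were fitted. The carbidopa value rested on replicate 1: it was 0.14 without that library and 0.51 without replicate 2, where it passed (edgeR adjusted p = 1.79e-04). The CHIR-99021 value, 0.27, passed when either carbidopa library was left out of the shared fit (edgeR adjusted p = 0.00319 and 0.00326).

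**Figure D1:**
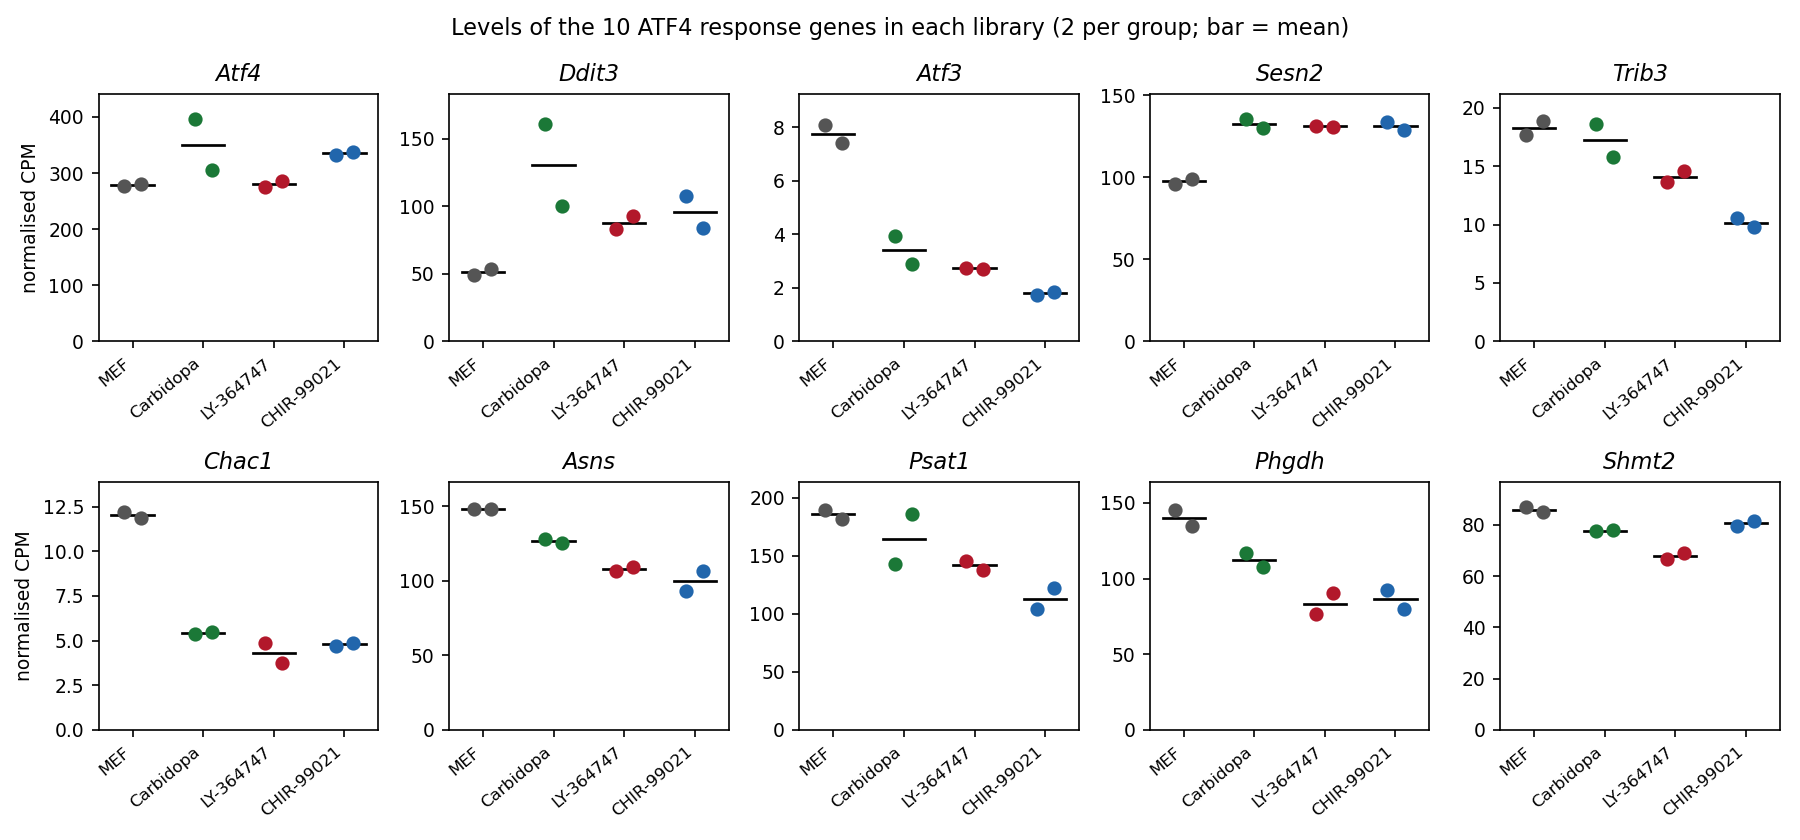
Level of each of the 10 genes in each of the 8 libraries, in normalised CPM on linear axes that start at 0. Points are libraries and bars are means of 2. Ddit3 and Sesn2 sit higher in all 6 treated libraries than in MEFs, while Atf3 and Chac1 sit lower in all 6.

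Of the members that feed back on growth or redox state, Sesn2 rose and Chac1 fell with all 3 compounds, and Trib3 fell with CHIR-99021. Sesn2 (chr4:132492032-132510501, minus strand) encodes sestrin 2, a leucine sensor that holds back the growth kinase complex mTORC1. It was at 96.1 and 98.7 CPM in MEFs, 135 and 130.0 CPM with carbidopa, 131 and 131 CPM with LY-364747 and 133 and 128 CPM with CHIR-99021. The 6 treated libraries fell in a narrow band above both MEF libraries. The log2 change was 0.45 with carbidopa, 0.43 with LY-364747 and 0.43 with CHIR-99021, each with an SE of 0.09. The edgeR adjusted p-values were 0.00372, 0.00502 and 0.00434. Without MEF replicate 1 these became 0.0524, 0.0671 and 0.0540 in edgeR, and without MEF replicate 2 the LY-364747 value became 0.0513, while the changes stayed between 0.41 and 0.44 in those fits.

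Chac1 (chr2:119351229-119354381, plus strand) encodes an enzyme that degrades glutathione and is a known ATF4 target. MEFs gave 164 and 184 Chac1 reads, carbidopa 114 and 118 reads, LY-364747 87 and 70 reads and CHIR-99021 82 and 84 reads. Normalised, it was at 12.2 and 11.9 CPM in MEFs, 5.37 and 5.50 CPM with carbidopa, 4.88 and 3.73 CPM with LY-364747 and 4.72 and 4.87 CPM with CHIR-99021. Every treated library lay below both MEF libraries. Chac1 changed on the log2 scale by -1.15, -1.48 and -1.33 with carbidopa, LY-364747 and CHIR-99021, each with an SE of 0.18. The edgeR adjusted p-values were 6.09e-04, 1.34e-04 and 2.62e-04, and these calls held in every alternative.

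Trib3 (chr2:152337422-152344032, minus strand) encodes a pseudokinase that is induced by ATF4 and CHOP and dampens ATF4 activity. Its level was 17.7 and 18.8 CPM in MEFs, 18.6 and 15.8 CPM with carbidopa, 13.6 and 14.6 CPM with LY-364747 and 10.6 and 9.75 CPM with CHIR-99021. The carbidopa libraries overlapped MEFs, and the libraries of the other compounds lay below. The log2 change with CHIR-99021 was -0.85 (SE 0.14, edgeR adjusted p = 0.00108). With LY-364747 it was -0.37 (edgeR adjusted p = 0.0680), passing when either carbidopa library was left out (0.0220 and 0.0217). With carbidopa it was -0.09.

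The 4 biosynthetic enzymes were lower on average in all treated groups, and each passed the test with at least 1 compound but none with carbidopa. Asns (chr6:7675169-7693254, minus strand), asparagine synthetase, is the textbook target of the amino acid response. It was at 148 and 148 CPM in MEFs, 128 and 125 CPM with carbidopa, 107 and 109 CPM with LY-364747 and 93.2 and 106 CPM with CHIR-99021. All treated libraries lay below MEFs, and those of LY-364747 and CHIR-99021 lay below those of carbidopa. On the log2 scale Asns changed by -0.57 (SE 0.10, edgeR adjusted p = 0.00129) with CHIR-99021 and -0.45 (SE 0.10, edgeR adjusted p = 0.00557) with LY-364747. The LY-364747 call was lost without MEF replicate 2 (edgeR adjusted p = 0.0544) or LY-364747 replicate 1 (0.0624). With carbidopa the change was -0.23 (edgeR adjusted p = 0.0928).

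Phgdh (chr3:98313170-98339990, minus strand) and Psat1 (chr19:15904678-15947337, minus strand) catalyse the opening steps of serine synthesis from glycolysis. Phgdh was at 146 and 135 CPM in MEFs, 117 and 108 CPM with carbidopa, 76.3 and 90.2 CPM with LY-364747 and 92.6 and 80.0 CPM with CHIR-99021. No treated library reached the MEF libraries. The log2 change was -0.75 (SE 0.12, edgeR adjusted p = 8.27e-04) with LY-364747 and -0.70 (SE 0.12, edgeR adjusted p = 0.00117) with CHIR-99021. With carbidopa it was -0.32 (edgeR adjusted p = 0.0562), and it passed with DESeq2 (adjusted p = 0.0426) and without carbidopa replicate 1 in edgeR (adjusted p = 0.0308). Of the 75-base stretches in Phgdh transcripts, 35.8% also occur in 13 other annotated genes or pseudogenes, so its counts are uncertain.

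Psat1 was at 189.8 and 182 CPM in MEFs, 142 and 186 CPM with carbidopa, 146 and 138 CPM with LY-364747 and 104 and 122 CPM with CHIR-99021. One carbidopa library reached the MEF level, and the libraries of the other compounds lay below it. The log2 change was -0.72 (SE 0.14, edgeR adjusted p = 0.00214) with CHIR-99021. With LY-364747 it was -0.39 (edgeR adjusted p = 0.0513), and it passed with DESeq2 (adjusted p = 0.0285) and in edgeR without carbidopa replicate 1 (adjusted p = 0.00255) or replicate 2 (0.00275). With carbidopa it was -0.18, or -0.38 without replicate 2 (edgeR adjusted p = 0.00882).

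Shmt2 (chr10:127517123-127522444, minus strand), the mitochondrial enzyme that takes the one-carbon unit from serine, moved least among the enzymes. It was at 86.9 and 85.0 CPM in MEFs, 77.6 and 78.0 CPM with carbidopa, 66.7 and 69.1 CPM with LY-364747 and 79.7 and 81.5 CPM with CHIR-99021. All treated libraries lay below MEFs and those of LY-364747 were lowest. The log2 change with LY-364747 was -0.34 (SE 0.09, edgeR adjusted p = 0.0171). That call was lost without MEF replicate 1 or 2 (edgeR adjusted p = 0.122 and 0.100) and without LY-364747 replicate 1 or 2 (0.137 and 0.0869). With carbidopa and CHIR-99021 the changes were -0.14 and -0.09. Exons of Shmt2 overlap those of Ndufa4l2 on the opposite strand, which had 135 reads over the 8 libraries together.

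**Figure D2:**
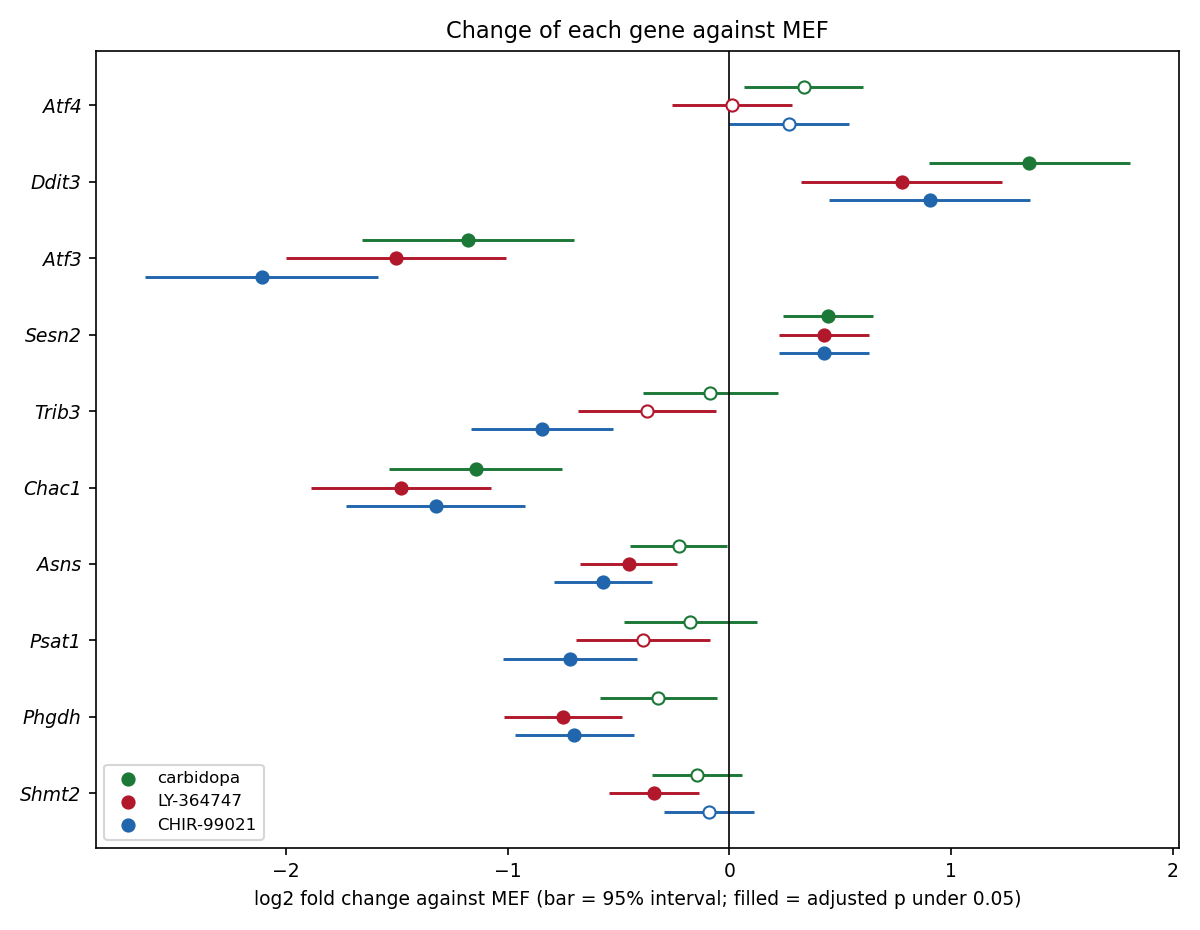
Log2 fold change of each gene against MEFs, with its 95% interval, for the 3 compounds. Filled points have an edgeR adjusted p under 0.05. Ddit3 and Sesn2 lie right of 0 and Atf3 and Chac1 left of 0 with every compound, and Trib3, Asns, Psat1 and Phgdh lie farther left with CHIR-99021 than with carbidopa.

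With carbidopa 4 of the 10 members were called, 2 higher and 2 lower, where 37.7% of all genes tested were called (18.0% higher and 19.7% lower). With LY-364747 the count was 7, 2 higher and 5 lower, against 31.0% of all genes (13.7% higher and 17.2% lower). With CHIR-99021 it was 8, 2 higher and 6 lower, against 38.8% of all genes (18.7% higher and 20.1% lower). The carbidopa share is near its background, and the other 2 shares lie above theirs. The LY-364747 count fell to 4 without MEF replicate 1 and to 3 without MEF replicate 2, where the share of all genes called also fell, to 18.9% and 18.0%. The median log2 change of the 10 was -0.16, -0.38 and -0.63 with carbidopa, LY-364747 and CHIR-99021, where the median of all genes was 0.04, 0.03 and 0.04. The groups did not overlap in 8, 9 and 10 members, against 68.9%, 72.7% and 76.2% of all genes. The 3 comparisons share the MEF libraries and are not independent of each other.

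The compounds were also set against each other at their common dose of 10 µM, which gave 3 pairs, with p-values adjusted over genes within each pair. CHIR-99021 was lower than carbidopa for 4 of 10 members and higher for none that passed, where 14.7% of all genes were called and 8.08% were lower. Trib3 differed by -0.76 (SE 0.14, edgeR adjusted p = 0.00592), and this call was lost only without CHIR-99021 replicate 2 (0.0576). Psat1 differed by -0.54 (SE 0.14), Asns by -0.34 (SE 0.10) and Atf3 by -0.93 (SE 0.24), with edgeR adjusted p-values of 0.0244, 0.0445 and 0.0297.

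These last 3 differences were near the limit. Only 1 of the 4 calls was left when carbidopa and CHIR-99021 were fitted alone (7.13% of all genes called) or when any single MEF or LY-364747 library was left out (9.63 to 10.3% of all genes called). Without CHIR-99021 replicate 1, 1 member passed (4.51% of all genes), and without CHIR-99021 replicate 2 the edgeR count was 0 (7.03% of all genes). Without carbidopa replicate 2, 7 members passed, where the share of all genes called rose to 29.2%. With carbidopa replicate 2 out, Ddit3 differed by -0.75 (edgeR adjusted p = 0.00153), against -0.45 (95% interval -0.89 to -0.01) with both libraries. Sesn2 differed by -0.02 (95% interval -0.22 to 0.18) and Shmt2 by 0.05 (95% interval -0.15 to 0.25).

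Between CHIR-99021 and LY-364747 the edgeR test called 0 members, as did DESeq2, where 14.1% of all genes were called in edgeR, and 4 members had an unadjusted p under 0.05. The nearest was Trib3, at -0.47 (95% interval -0.79 to -0.15, edgeR adjusted p = 0.0535), and 4 members passed without carbidopa replicate 1 or without replicate 2, where 26.7% and 26.6% of all genes were called. Atf4 differed by 0.26 (95% interval -0.01 to 0.53) and Sesn2 by -0.0011 (95% interval -0.20 to 0.20). Between LY-364747 and carbidopa both tests again called 0 members, with 0.0132% of all genes called in edgeR and 4 members at an unadjusted p under 0.05. Phgdh differed by -0.43 (95% interval -0.70 to -0.16) and Ddit3 by -0.57 (95% interval -1.02 to -0.13) there. Without carbidopa replicate 2, 4 members passed, where 24.1% of all genes were called. The median log2 difference of the 10 was -0.36 for CHIR-99021 against carbidopa, 0.03 for CHIR-99021 against LY-364747 and -0.30 for LY-364747 against carbidopa. The medians of all genes were -0.0007, 0.006 and -0.01 in that order. The groups did not overlap in 7, 6 and 8 members, against 52.2%, 64.5% and 37.7% of all genes. The intervals are wide enough that the p-values of these pairs do not show the compounds to act alike.

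**Figure D3:**
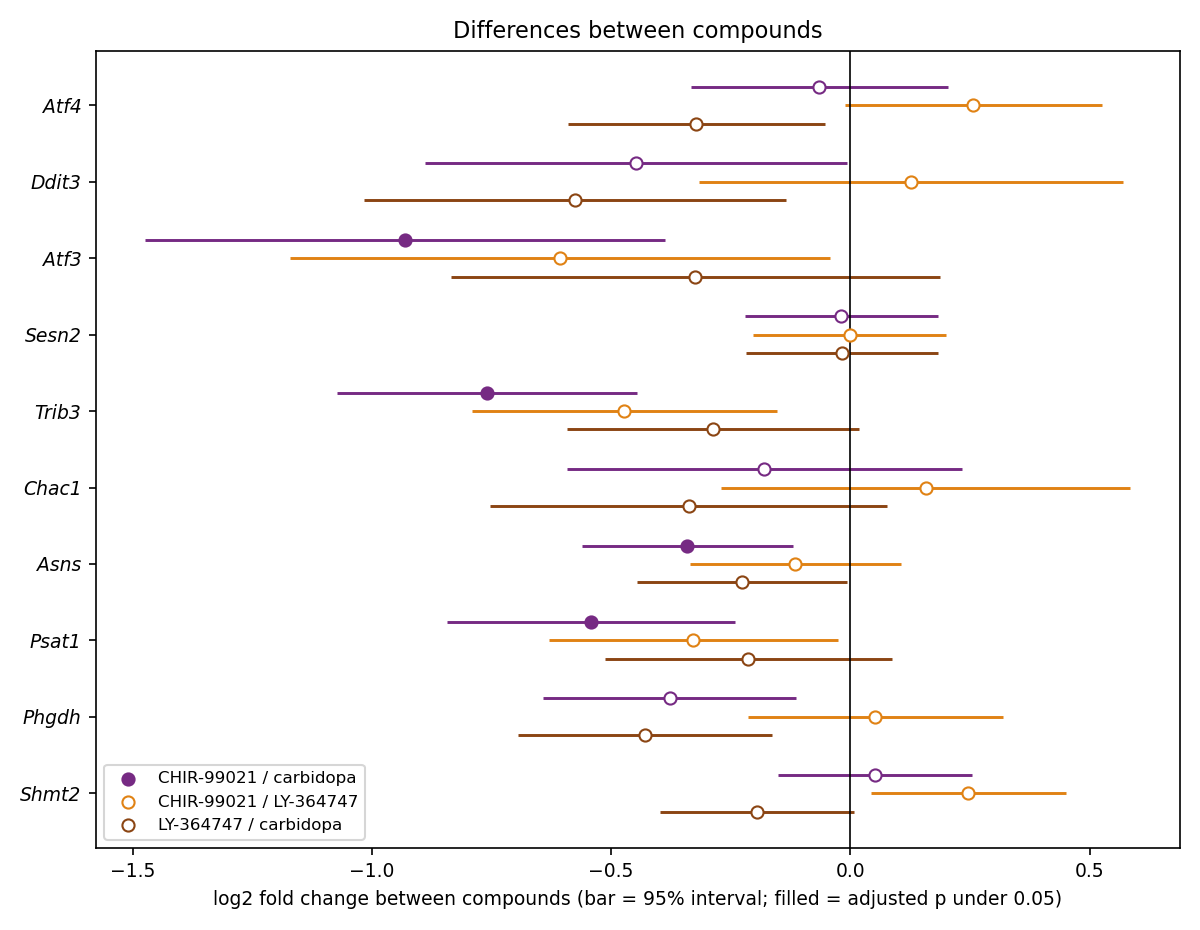
Log2 difference of each gene between compounds, with its 95% interval, for the 3 pairs. Filled points have an edgeR adjusted p under 0.05. Only Atf3, Trib3, Asns and Psat1 are filled, all for CHIR-99021 against carbidopa and all below 0.

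The wider pathway and its neighbours were followed through 10 further lists with 88 genes, of which 87 were tested. Not all are linked to ATF4: 8 other cytosolic synthetases, 6 paralogs, 14 unfolded protein response genes and 6 mitochondrial genes are included. The counts here come from the fit shared by the 8 libraries, and those with only the groups compared are given further below. With carbidopa 44 of the 87 were called (50.6%, against 37.7% of all genes), 14 higher and 30 lower. With LY-364747 the share was 43.7%, against 31.0% of all genes, with 6 higher and 32 lower. With CHIR-99021 it was 49.4%, against 38.8% of all genes, with 12 higher and 31 lower. Among all genes 19.7%, 17.2% and 20.1% were lower with the 3 compounds in that order, and the counts of each list below are to be read against these shares. Without MEF replicate 1 these counts fell to 21, 22 and 25 (21.3%, 18.9% and 24.7% of all genes called), and without MEF replicate 2 to 23, 23 and 27 (19.9%, 18.0% and 21.9% of all genes called). The LY-364747 count was 24 without LY-364747 replicate 1 and 23 without replicate 2 (19.7% and 18.8% of all genes called), and the CHIR-99021 count was 27 without CHIR-99021 replicate 1 (21.7% of all genes called).

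Every amino acid transporter that was called was lower: of 10 genes 7 fell with carbidopa, 6 with LY-364747 and 6 with CHIR-99021, where 19.7%, 17.2% and 20.1% of all genes were lower, and the list medians were -0.57, -0.63 and -0.55. Slc7a5, the large neutral amino acid carrier that imports leucine, was at 91.8 and 91.0 CPM in MEFs and 42.8 to 60.0 CPM in treated cells. It fell by 0.78, 0.77 and 1.06 on the log2 scale (edgeR adjusted p = 7.20e-04, 8.12e-04 and 8.53e-05), and these calls held in every alternative. The glutamine carrier Slc1a5 changed by -0.56, -0.70 and -0.72 and the glycine carrier Slc6a9 by -0.58, -0.66 and -0.97. The carbidopa calls of both were lost without MEF replicate 1 (-0.50 and -0.58). The Slc6a9 calls with carbidopa and LY-364747 were lost without MEF replicate 2 (-0.58 and -0.66), and the latter also without LY-364747 replicate 1 (-0.53). Slc1a4, a carrier of alanine and serine, changed by -0.67 with CHIR-99021 (edgeR adjusted p = 7.49e-04) and by -0.07 and -0.15 with carbidopa and LY-364747, which were not called.

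Enzymes of serine, one-carbon and amino acid synthesis beyond the members were mostly lower: 7 of 10 fell and 1 rose with carbidopa, and 6 fell with each of the other compounds, against 19.7%, 17.2% and 20.1% of all genes lower. Cth, which makes cysteine from cystathionine, changed by -1.62, -1.48 and -1.63 with carbidopa, LY-364747 and CHIR-99021 (edgeR adjusted p = 9.40e-04, 0.00180 and 9.81e-04). Aldh1l2, a mitochondrial folate enzyme, changed by -1.25, -1.20 and -1.43, and both genes held in every alternative. Mthfd2, its partner in mitochondrial folate metabolism, changed by -0.48, -0.79 and -0.59. The carbidopa and CHIR-99021 calls of Mthfd2 were lost without MEF replicate 1 (-0.37 and -0.48). Gpt2, which makes alanine, changed by -0.85, -0.64 and -0.45, the last of these lost without MEF replicate 1 (-0.38) or CHIR-99021 replicate 2 (-0.34).

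Aminoacyl-tRNA synthetases, which charge tRNAs with amino acids, were held as a list of 13 genes linked to ATF4 and a list of 8 other cytosolic synthetases. Of the 13, 5 fell and 1 rose with carbidopa, and 6 fell with each of LY-364747 and CHIR-99021. Of all genes 37.7%, 31.0% and 38.8% were called with carbidopa, LY-364747 and CHIR-99021, so 6 of 13 is not far from the background. The shares of all genes lower were 19.7%, 17.2% and 20.1%. Xpot, a tRNA exporter placed with them, changed by -0.67, -0.63 and -0.58, which held in every alternative. Gars, the glycyl enzyme, changed by -0.39, -0.58 and -0.42, with the carbidopa and CHIR-99021 calls lost without MEF replicate 1 (-0.35 and -0.38). Iars, the isoleucyl enzyme, changed by -0.63, -0.60 and -0.41, the last lost without any single MEF or CHIR-99021 library (-0.39 to -0.42).

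Among the 8 others, edgeR and DESeq2 called 0 with carbidopa, and 0 had an unadjusted p under 0.05. Rars and Farsb fell with LY-364747, and Kars, Vars and Farsa rose with CHIR-99021 by 0.40, 0.40 and 0.43. The Rars value was -0.35 and its call was lost without any single MEF or LY-364747 library (-0.31 to -0.40). The Kars, Vars and Farsa calls were lost without MEF replicate 1, MEF replicate 2 or CHIR-99021 replicate 1, when the changes lay between 0.28 and 0.49, and the Farsa call also without either LY-364747 library.

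Upstream of Atf4, 6, 6 and 5 of 8 eIF2α kinases, eIF2 subunits and phosphatase subunits were not called with carbidopa, LY-364747 and CHIR-99021. Since 37.7%, 31.0% and 38.8% of all genes were called, these counts are near the background. The gene called with every compound was Ppp1r15a, or GADD34, the stress-induced subunit that brings the phosphatase to eIF2α. It was at 30.0 and 29.9 CPM in MEFs, 68.9 and 47.7 CPM with carbidopa, 45.2 and 52.1 CPM with LY-364747 and 87.7 and 71.3 CPM with CHIR-99021. All treated libraries lay above both MEF libraries. Its log2 change was 0.96, 0.70 and 1.41 (edgeR adjusted p = 0.00186, 0.0123 and 1.41e-04), the LY-364747 call being lost without MEF replicate 1 (0.0765), MEF replicate 2 (0.0792) or LY-364747 replicate 2 (0.0982). Eif2ak4, the amino acid sensing kinase GCN2, changed by 0.51 with CHIR-99021 (edgeR adjusted p = 0.00348) and by 0.11 and 0.28 with carbidopa and LY-364747, which were not called. Eif2b5 was also called higher with CHIR-99021 alone, at 41.9 and 39.3 CPM in MEFs and 60.7 and 53.0 CPM with CHIR-99021. Eif2s1, which encodes eIF2α itself, changed by -0.27 with carbidopa and -0.38 with LY-364747, and neither call was firm. The carbidopa call was lost without any single MEF, CHIR-99021 or LY-364747 library (-0.26 to -0.29), and the LY-364747 call without any single MEF or LY-364747 library (-0.35 to -0.41).

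Of 7 transcription factors that partner or follow ATF4, 1 rose and 2 fell with each compound, and they were the same 3 genes. With the 3 compounds 37.7%, 31.0% and 38.8% of all genes were called, so 3 of 7 is not far from the background. The shares of all genes higher were 18.0%, 13.7% and 18.7%. Nfe2l2, the antioxidant regulator NRF2, rose by 1.07, 0.94 and 0.52 on the log2 scale (edgeR adjusted p = 1.19e-05, 3.10e-05 and 0.00169), and these calls held in every alternative. Nupr1, a stress-induced chromatin factor, changed by -0.64, -1.30 and -1.27, the carbidopa call being lost without MEF replicate 1 (-0.59) and its value moving to -0.43 without carbidopa replicate 2. Cebpg, a binding partner of ATF4, changed by -0.29, -0.40 and -0.49. Its carbidopa call (edgeR adjusted p = 0.0440) was lost in all leave-one-out fits but that without carbidopa replicate 1 (-0.25 to -0.32), its LY-364747 call without any single MEF or LY-364747 library (-0.36 to -0.45), and its CHIR-99021 call without CHIR-99021 replicate 1 (-0.41).

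Secreted factors and growth brakes downstream of ATF4 moved both ways. Of 5 tested, 3 were higher and 1 lower with carbidopa, and 2 were higher and 1 lower with each of LY-364747 and CHIR-99021. The background was 37.7%, 31.0% and 38.8% of all genes called. Vegfa, the vascular growth factor, rose by 1.01, 0.92 and 0.88 on the log2 scale (edgeR adjusted p = 2.82e-05, 5.97e-05 and 7.57e-05) and held in every alternative. Gdf15, a stress hormone, rose by 1.41, 1.20 and 1.25, from 1.12 and 0.903 CPM in MEFs to between 2.07 and 3.06 CPM, but each call was lost without MEF replicate 2 (1.25, 1.05 and 1.09). The LY-364747 call was also lost without MEF replicate 1 (1.35) or LY-364747 replicate 2 (1.08), and the CHIR-99021 call without CHIR-99021 replicate 2 (1.05). With DESeq2 neither the LY-364747 nor the CHIR-99021 change of Gdf15 passed (adjusted p = 0.0892 and 0.0627). Gdf15 drew only 15 and 14 reads in MEFs. Stc2, a secreted glycoprotein, changed by -0.60, -0.77 and -0.90. The carbidopa call was lost without MEF replicate 1 or carbidopa replicate 1 (-0.47 each), and the LY-364747 call without MEF replicate 1 (-0.64) or LY-364747 replicate 1 (-0.63). Eif4ebp1 was called higher with carbidopa alone, at 64.8 and 68.3 CPM in MEFs and 96.4 and 78.1 CPM with carbidopa. That call was lost without any single MEF or LY-364747 library or carbidopa replicate 1 (0.23 to 0.42), and with only the groups compared. Ddit4 was not called with any compound.

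Relatives of Trib3, Sesn2, Shmt2 and Chac1 were measured beside them, and the differences between relatives were not tested. Of 6 paralogs, 1 was higher and 3 lower with carbidopa, 1 higher and 2 lower with LY-364747, and 3 lower with CHIR-99021. The shares of all genes called were 37.7%, 31.0% and 38.8%. Trib1, a paralog of Trib3, and Shmt1, the paralog of Shmt2, were not called with any compound. Trib2, another paralog of Trib3, was at 173 and 165 CPM in MEFs and between 17.9 and 20.4 CPM in all treated libraries. Its log2 change was -3.23, -3.13 and -3.11 (edgeR adjusted p = 1.27e-08, 1.48e-08 and 2.12e-08), where Trib3 changed by -0.09, -0.37 and -0.85. Sesn1, a paralog of Sesn2, rose like Sesn2 with carbidopa (0.84) and LY-364747 (0.82), with edgeR adjusted p-values of 0.00110 and 0.00140. The Sesn1 change of 0.12 with CHIR-99021 was not called. Sesn3 changed by -0.70, -0.30 and -0.81, of which the carbidopa and CHIR-99021 values were called and the former was lost without MEF replicate 2 (-0.61). Chac2 was called lower with all 3 compounds, as Chac1 was, at -0.63, -0.71 and -0.64. Every Chac2 call was lost without either MEF library (-0.56 to -0.78), and also without carbidopa replicate 1 (-0.57), either LY-364747 library (-0.65 and -0.78) or CHIR-99021 replicate 2 (-0.42), and none passed with DESeq2.

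**Figure D4:**
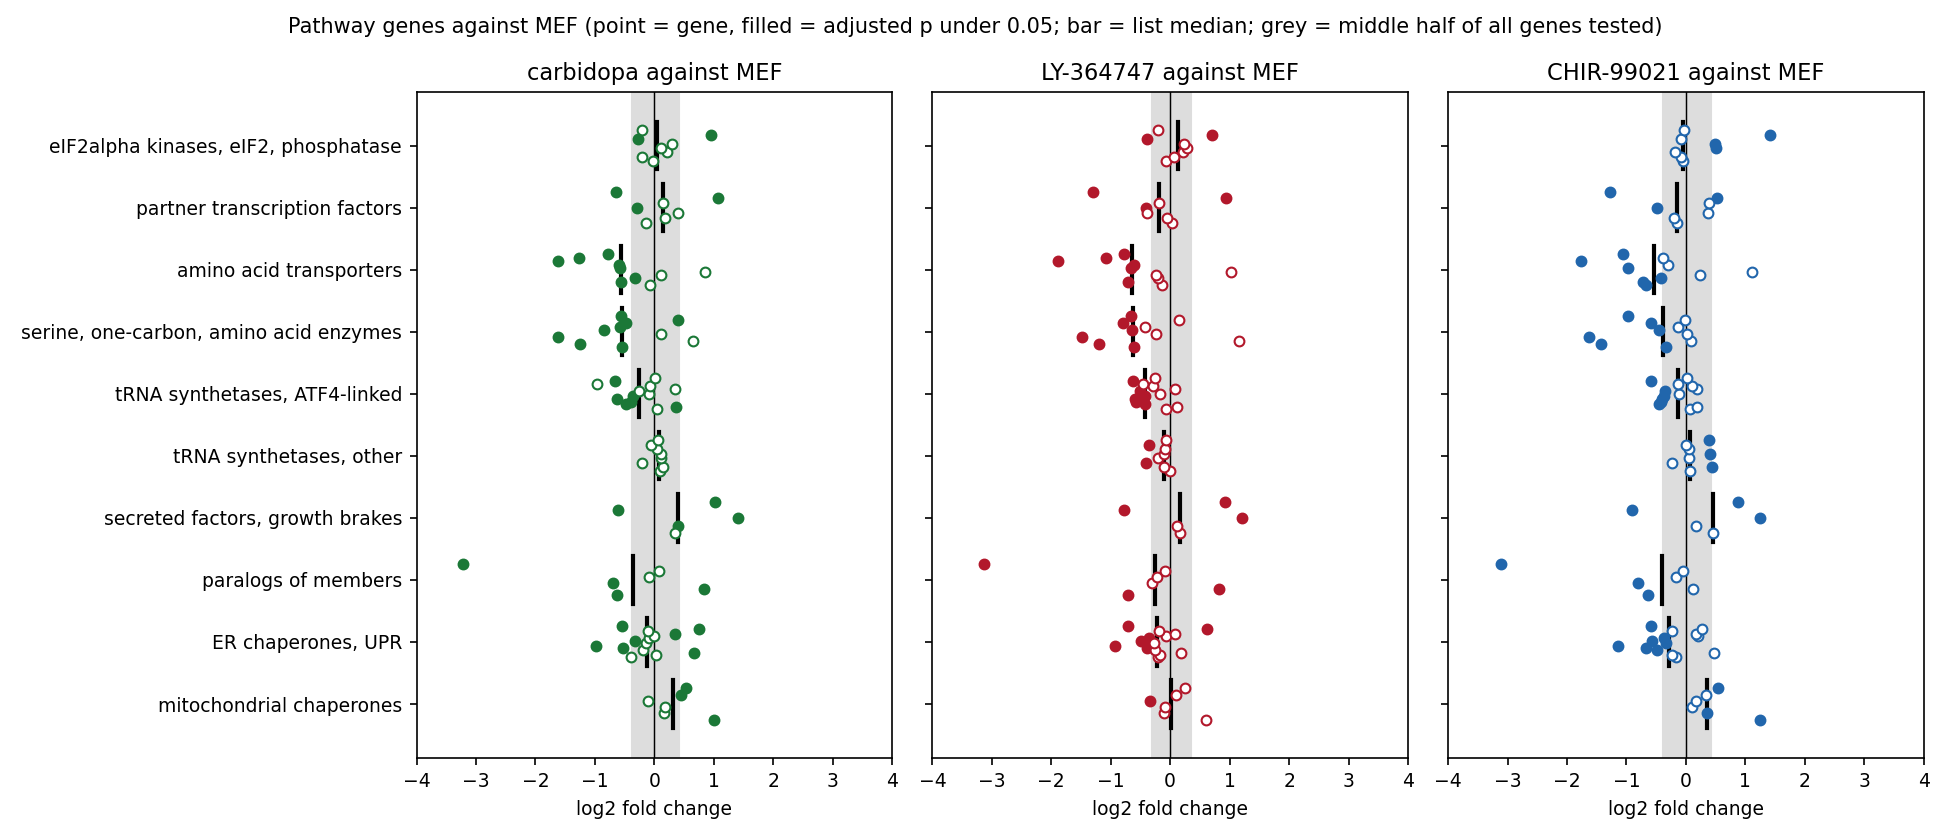
Log2 fold change against MEFs of each tested gene of the 10 pathway lists, with 1 panel per compound. Filled points have an edgeR adjusted p under 0.05, black bars are list medians and the grey band holds the middle 50% of all genes tested. The medians of the transporters and of the synthesis enzymes lie left of 0 in all panels, and Trib2 is the point near -3.

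The genes whose pattern over the 8 libraries came nearest to a member's were found by the root mean square difference of centred log2 CPM. For Ddit3 these were Gadd45a, a growth arrest gene (0.0850), Metrnl (0.0916) and Kin (0.106), where the median gene stood at 0.574. For Atf4 they were Tomm40l (0.0306), Psmb6 (0.0375) and Abhd11 (0.0383), with the median gene at 0.328. For Asns they were Cks2 (0.0394), Slc30a5 (0.0401) and Mfsd1 (0.0596), with the median gene at 0.381.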

How the data were processed

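Per the labels, total RNA was sequenced in 8 libraries. The authors aligned to mm10 by STAR (version 2.4.2a in the submitters' processing notes) and deposited whole-number counts per gene, without normalization. The labels and the study's methods name different library kits, and strand use was not given in the sources used here. Totals per library were 15039566 to 20504338.

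The counts were fitted in R 4.3.3 with edgeR 4.0.16 (filterByExpr, TMM, quasi-likelihood test, a group term alone, 1 fit for the 8 libraries, Benjamini-Hochberg adjustment). CPM used TMM library sizes, and RPKM the exon lengths of GENCODE M21 on GRCm38, the assembly also called mm10, which held 99.6% of the gene identifiers. The common coefficient of biological variation was 11%. Intervals are 95% and come from the moderated SE. Groups were taken from the labels. The scripts were tested on simulated data. Every replicate pair differed by more than sampling noise, so none was a library deposited more than once.

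The members and lists were chosen with earlier results of these data known. The text names all members, up to 4 genes per list with the smallest edgeR p over the 3 comparisons with MEFs, and the 3 genes nearest in pattern to Atf4, Asns and Ddit3. Other genes named were chosen after their values were seen. These were Mars, Farsb, Ndufa4l2, Krt19, Fn1, Pdgfra, Pdgfrb, Dcn, Trib1, Shmt1, Eif2b5, Ddit4, Sdf2l1, Creld2, Manf, Hspe1, Fgf21 and the hepatocyte genes. Fgf21 did not pass the filter.

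Alternatives were DESeq2 1.42.0, RLE size factors, no filter, a minimum of 10 counts per library, a fit of only the groups compared, a replicate block, and each library left out. When 1 library is left out its group has 1 library, assumed to vary like the others. A block with the LY-364747 replicate numbers crossed was added after seeing the data.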

Additional observations from a re-analysis of the deposited data

How the results depend on the processing

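The calls of Atf3 and Chac1 against MEFs held in every alternative, and the cause of each change below was not tested unless fewer samples were fitted. Counts of members called with single libraries left out ranged from 3 to 6 with carbidopa, 3 to 9 with LY-364747, 6 to 9 with CHIR-99021, 0 to 7 for CHIR-99021 against carbidopa, 0 to 4 for CHIR-99021 against LY-364747 and 0 to 4 for LY-364747 against carbidopa. For the pathway lists they ranged from 21 to 57, 22 to 53, 25 to 53, 0 to 25, 0 to 32 and 0 to 32, against main counts of 44, 38, 43, 8, 14 and 0. With only the groups compared, carbidopa, LY-364747 and CHIR-99021 against MEFs gave 4, 9 and 9 members and 31, 57 and 55 list genes. Of all genes 28.7%, 47.3% and 52.7% were then called. In the same setting CHIR-99021 against carbidopa gave 1 member and 2 list genes, and CHIR-99021 against LY-364747 gave 3 members and 22 list genes. CHIR-99021 against LY-364747 gave 1 member with RLE size factors or with at least 10 counts in every library. Without the filter, LY-364747 against carbidopa gave 2 members and 3 list genes, and this main comparison had 17 list genes at an unadjusted p under 0.05 and 0 with DESeq2.

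No source says that the replicate numbers pair the samples, and correlations of the replicate differences between groups ran from -0.161 to 0.128. The most negative were those of LY-364747 with carbidopa (-0.161) and with CHIR-99021 (-0.148), and the highest that of carbidopa with CHIR-99021. Whether libraries of the same number shared an effect was not tested. The replicate block gave 4, 7 and 8 members against MEFs, and 3, 0 and 0 between compounds, with Asns lost for CHIR-99021 against carbidopa (edgeR adjusted p = 0.0674). The block with the LY-364747 numbers crossed, added after seeing the data, gave 6, 9, 8, 5, 1 and 0 members and 48, 44, 48, 16, 20 and 0 list genes in the same order.

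Reversals touched only changes that were not called. Atf4 with LY-364747 became -0.0078 with DESeq2 and -0.0072 with RLE size factors, and ranged from -0.014 to 0.036 with single libraries left out. Sesn2 for CHIR-99021 against LY-364747 became 0.015 without the filter (-0.024 to 0.032 with libraries left out), and Rars with CHIR-99021 became 0.020 without it (-0.054 to 0.046). With libraries left out, the carbidopa changes ranged from -0.21 to 0.029 for Trib3, -0.38 to 0.0038 for Psat1, -0.11 to 0.78 for Cebpb, -0.0080 to 0.12 for Vars, -0.0083 to 0.29 for Farsa and -0.16 to 0.027 for Rars. Vars with LY-364747 ranged from -0.16 to 0.028 and Sesn1 with CHIR-99021 from -0.029 to 0.28. Between CHIR-99021 and carbidopa, Atf4 ranged from -0.24 to 0.14 and Sesn2 from -0.044 to 0.014. Between CHIR-99021 and LY-364747, Ddit3 ranged from -0.063 to 0.30, Chac1 from -0.019 to 0.36 and Phgdh from -0.070 to 0.18, and between LY-364747 and carbidopa Sesn2 ranged from -0.047 to 0.010. With 2 libraries a group, a missed threshold does not show that a gene was level.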

Other observations

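Genes of the endoplasmic reticulum unfolded protein response, a neighbouring stress pathway that also feeds eIF2α phosphorylation, moved both ways with carbidopa and mostly down where called with the other compounds. Of 14 tested, 3 were higher and 4 lower with carbidopa, 1 higher and 5 lower with LY-364747, and 7 lower with CHIR-99021, with the remaining 7 not called, where 37.7%, 31.0% and 38.8% of all genes were called. The higher genes were Sdf2l1, Creld2 and Manf with carbidopa and Sdf2l1 with LY-364747. Edem1, which sends misfolded glycoproteins to degradation, changed by -0.98, -0.93 and -1.15 on the log2 scale with carbidopa, LY-364747 and CHIR-99021 (edgeR adjusted p = 5.68e-05, 8.80e-05 and 1.86e-05). Xbp1, a transcription factor of that pathway, changed by -0.55, -0.70 and -0.58, and both genes held in every alternative. Dnajc3, an inhibitor of the eIF2α kinase PERK, changed by -0.54, -0.40 and -0.68, with the LY-364747 call lost without any single MEF or LY-364747 library. Hsp90b1, a chaperone of the same compartment, changed by -0.32, -0.49 and -0.56, with the carbidopa call lost without either MEF library (-0.30 and -0.35).

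Among 6 mitochondrial chaperones and proteases, 3 were higher with carbidopa (Hspe1, Lonp1 and Clpp) and 3 with CHIR-99021 (Lonp1, Clpp and Dnaja3). With LY-364747 1 was lower (Hspd1, -0.34, lost without any single MEF or LY-364747 library). With carbidopa, LY-364747 and CHIR-99021 37.7%, 31.0% and 38.8% of all genes were called, and 18.0%, 13.7% and 18.7% were higher. The Dnaja3 call was lost with DESeq2 (adjusted p = 0.0761) and without any single MEF or CHIR-99021 library (0.32 to 0.39). Clpp, a matrix protease, rose by 1.01 with carbidopa and 1.25 with CHIR-99021 (edgeR adjusted p = 0.0100 and 0.00285), and changed by 0.60 with LY-364747, which was not called. The carbidopa call was lost without either MEF library (1.02 and 0.98), and leaving out carbidopa replicate 1 or 2 moved the value to 0.57 or 1.34. The LY-364747 value passed without the filter (edgeR adjusted p = 8.29e-04), with only the groups compared (0.00125) and without either carbidopa library (0.0132 and 0.0135), and it ranged from 0.39 to 0.78 without 1 or the other LY-364747 library. Lonp1 changed by 0.54 with carbidopa and with CHIR-99021, and these calls were lost without MEF replicate 2 (0.43 each), carbidopa replicate 1 (0.41) or CHIR-99021 replicate 1 (0.38). Fgf21, a hormone that ATF4 induces in several tissues, was too scarce to test, at 2.16 and 0.645 CPM in MEFs and at most 0.281 CPM in any treated library.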
